A study of Arabidopsis thaliana with 6 samples.

Results

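Jacalin-type lectins are plant proteins that bind sugars such as mannose through a domain first described in the jackfruit lectin jacalin. The genes examined here are 10 Arabidopsis thaliana loci of this family, AT5G35940 and 9 relatives, of which 7 have an array probe set that names that gene and no other, out of 13286 genes measured in this way. AT5G35940 was selected on its low value in the sdg2 mutant in these same data. The relatives were chosen by family, but with results of this contrast known. The difference between the genotypes is therefore given for all of them as a description. Calls of the fit over the whole table are counted for the relatives alone, beside the share of all probe sets called, and support nothing about the family. The measured loci are AT5G35940, AT2G25980, AT1G52000, AT1G52050, AT1G52060, AT1G52070 and AT5G49870. AT5G38550 has a probe set shared with its neighbour AT5G38540, and AT5G35950 and AT3G16390 have no probe set named in the tables used, so these 3 loci were not analysed here.

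RNA was profiled on 6 Affymetrix arrays, 3 from Columbia (Col-0) wild type plants and 3 from plants of the same accession carrying an sdg2 mutation. The material of both groups was whole seedlings, 10 days old, raised at 22 °C in light for 24 h a day on half-strength (1/2) MS medium. SDG2 is a histone methyltransferase that places trimethylation on lysine 4 of histone H3. The labels do not name the sdg2 allele. SDG2 has no probe set named in the tables used, so the genotype labels were not checked against it. By their titles the samples are biological replicates, and the labels do not say whether they came from separate plates or sowings. Therefore errors and p-values measure their spread alone, part of which may be technical.

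Arabidopsis has many jacalin-type genes, and several stand side by side in tandem groups. Some of the proteins associate with myrosinases and other beta-glucosidases, enzymes that cleave glucosinolates and related glucosides when tissue is damaged. A group of them binds PYK10, the abundant beta-glucosidase of the endoplasmic reticulum (ER) bodies of seedlings and roots. AT3G16390, which is among the unmeasured loci, encodes a nitrile-specifier protein (NSP3) that joins a jacalin domain to kelch repeats and directs glucosinolate breakdown towards nitriles.

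Values are log2 signals. On every array the dim, presumably unexpressed probe sets form a peak between 2.17 and 2.19 (the lower mode), and a mean below 3 is called near background in what follows. The arrays hold brightness per probe set, so levels of different genes are not compared with each other, and only differences between genotypes are ordered.

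AT5G35940 and 5 of its 6 measured relatives lay lower in sdg2 on all 3 mutant arrays than on any wild type array. The other relative, AT5G49870, was near background in both genotypes. The differences ranged from -4.29 for AT5G35940 to -0.05 for AT5G49870. Their median was -1.28 with AT5G35940 and -1.07 over the relatives alone, and the median over all 22746 probe sets was -0.01. AT5G35940 was chosen from this contrast and is left out of the following counts. Of the 6 relatives, 5 were called lower in sdg2 by limma (adjusted p of 0.05 over the whole table), as were 17.6% of all probe sets. At a difference of at least 2-fold 3 of the 6 were called lower, against 5.51% of all probe sets, and groups did not overlap for 5 of the 6, as in 48.3% of all probe sets. Nothing is read from these shares, since the relatives were listed with results of the contrast known.

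**Figure D1:**
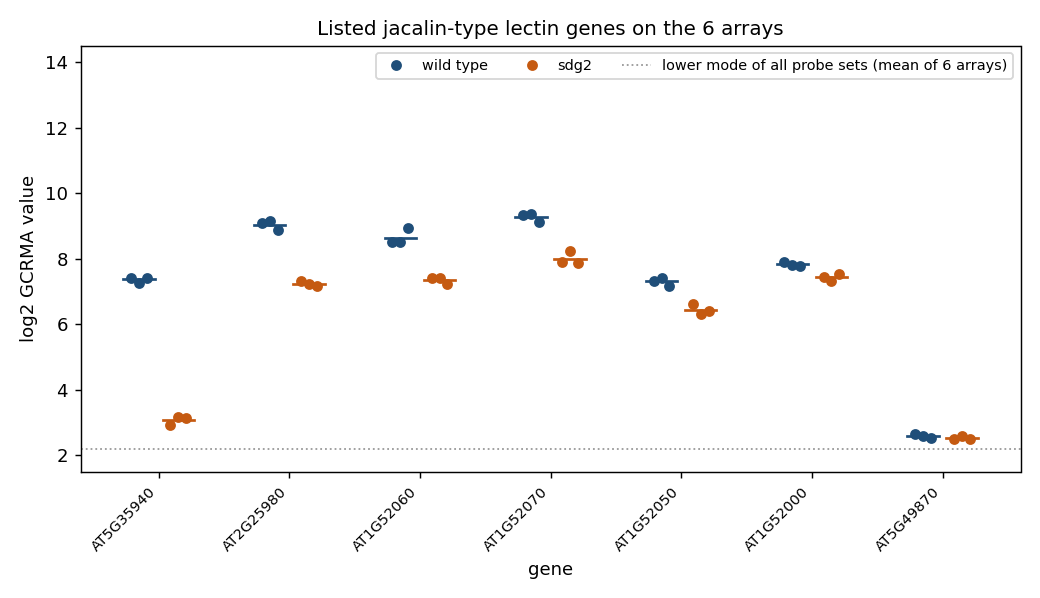
Log2 signal of the 7 measured members on each of the 6 arrays, ordered by the difference between genotypes. Points are single arrays (3 per genotype, left to right by replicate number), short bars are group means and the dotted line is the lower mode of all probe sets; in sdg2 AT5G35940 sits at a mean of 3.08, and the other members that differ sit at means of 6.45 and above.

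AT5G35940 gave log2 signals of 7.41, 7.27 and 7.42 in the wild type samples and of 2.91, 3.17 and 3.15 in the sdg2 samples. The groups were separated by 4.10 log2 units, whereas the standard deviation within a group was 0.09 in wild type and 0.14 in sdg2. The difference was -4.29 ± 0.09 (moderated SE, n = 3 per group), from a mean of 7.37 to a mean of 3.08. Because the sdg2 mean lies just above the level of unexpressed probe sets, the difference of 19.5-fold does not measure how much transcript was left.

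AT2G25980, on chromosome 2, was the member with the next largest difference. Its signals were 9.09, 9.15 and 8.88 in wild type and 7.32, 7.22 and 7.17 in sdg2. Every mutant sample was at least 1.56 log2 units below every wild type sample, and the difference was -1.80 ± 0.08, a 3.49-fold lower signal in sdg2. Unlike AT5G35940 it kept a signal far above background in the mutant.

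AT1G52050, AT1G52060 and AT1G52070 follow each other directly on chromosome 1, close to the myrosinase-binding protein genes MBP1 and MBP2, which have no probe set of their own here. AT1G52060 read 8.50, 8.50 and 8.93 in wild type and 7.42, 7.41 and 7.24 in sdg2. AT1G52070 read 9.34, 9.38 and 9.13 in wild type and 7.91, 8.22 and 7.86 in sdg2. For both genes the groups stood apart, and their differences of -1.29 ± 0.14 and -1.28 ± 0.12, each 2.44-fold, were the same within error. AT1G52050 read 7.32, 7.43 and 7.18 in wild type and 6.61, 6.32 and 6.41 in sdg2. It was also lower in every mutant sample, by a smaller mean of 0.86 log2 units (-0.86 ± 0.10, 1.81-fold). Whether the probe sets of these similar neighbours read each other's transcripts was not tested.

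AT1G52000 lies on the far side of MBP1 and MBP2 in the same stretch. Its signals were 7.91, 7.82 and 7.79 in wild type and 7.44, 7.33 and 7.53 in sdg2. The groups did not overlap but came within 0.26 of each other, and the difference was -0.41 ± 0.06, a 1.33-fold lower signal. This was the smallest difference among the members that stood clear of background.

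AT5G49870 gave 2.64, 2.59 and 2.52 in wild type and 2.50, 2.59 and 2.51 in sdg2. All 6 values were near the level of unexpressed probe sets and the groups overlapped, so these arrays hold no measurable difference for this gene (-0.05 ± 0.04).

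AT5G35940, chosen for its difference, is left out of the order of the differences. The combined standard errors given here treat the genes of a pair as independent, although both were read on the same arrays. They therefore do not measure the spread of a step across arrays, which was not tested. Among the relatives, the step from AT2G25980 to AT1G52060 was 0.52 with a combined standard error of 0.16. AT1G52060 and AT1G52070 did not differ beyond their errors, with a step of 0.00 and a combined standard error of 0.18. The steps from AT1G52070 to AT1G52050 and from AT1G52050 to AT1G52000 were 0.43 and 0.45, with combined standard errors of 0.16 and 0.12. The standard deviation between samples of a genotype ranged over the members from 0.06 to 0.25 in wild type and from 0.05 to 0.20 in sdg2.

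The members did not vary together among samples of 1 genotype in a single way. Wild type replicate 3 was the lowest wild type sample for AT1G52050, AT1G52070, AT1G52000 and AT2G25980, and the highest for AT1G52060 and AT5G35940. In sdg2, replicate 1 was the lowest sample for AT5G35940 and the highest for AT1G52050, AT1G52060 and AT2G25980. AT5G49870, near background, is left out of these orders. Set against the wild type mean, the sdg2 samples were at -4.45, -4.19 and -4.22 for AT5G35940, and the smallest such shift in AT2G25980 was -1.72.

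A wider family list of 48 jacalin-type loci holds 22 with a probe set of their own, the 7 members and 15 others, with 11 of the 22 on chromosome 1. Among the 15 others, 4 fell, 2 rose and 9 did not pass in limma (adjusted p of 0.05 over all probe sets), so 40.0% changed, close to the 36.6% of all probe sets that changed in either direction. A rise was called in 19.0% of all probe sets. The median difference of the 15 was -0.03. In 6 of them both group means were below 3.

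**Figure D2:**
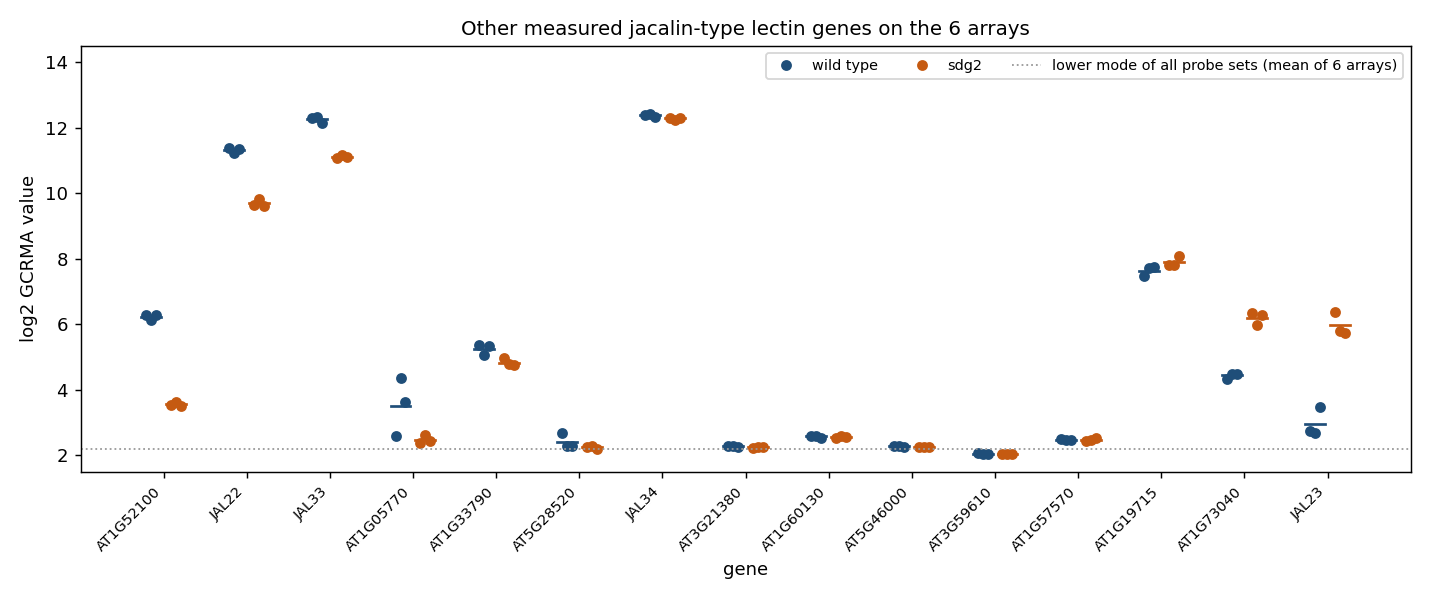
Log2 signal of the 15 other measured jacalin-type genes on the 6 arrays, ordered by the difference between genotypes. Points are single arrays, short bars group means and the dotted line the lower mode of all probe sets; AT1G52100, JAL22 and JAL33 sit lower in sdg2, AT1G73040 and JAL23 sit higher, and 6 genes lie near background in both genotypes.

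AT1G52100, the next jacalin-type gene along chromosome 1 after AT1G52070 with a probe set of its own, fell more than any member except AT5G35940. Its signals were 6.27, 6.13 and 6.29 in wild type and 3.53, 3.63 and 3.49 in sdg2. The mutant samples lay 2.49 below the lowest wild type sample, and the difference was -2.68 ± 0.06 (limma adjusted p = 1.62e-05). Over the 6 arrays it was the family gene whose profile lay nearest to that of AT5G35940.

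JAL22 and JAL33 encode jacalin-related lectins known from complexes with PYK10, and both fell from high signals. JAL22 read 11.39, 11.24 and 11.35 in wild type, 9.65, 9.83 and 9.60 in sdg2, and differed by -1.63 ± 0.08 (limma adjusted p = 0.000108). JAL33 read 12.30, 12.33 and 12.16 in wild type, 11.08, 11.16 and 11.11 in sdg2, and differed by -1.15 ± 0.05 (limma adjusted p = 0.000112). In neither gene did the groups overlap. JAL34, a gene of the same tandem group as JAL33, had a wild type mean of 12.38 ± 0.05 (SD, n = 3) and an sdg2 mean of 12.28 ± 0.03, and its difference of -0.09 ± 0.04 did not pass (limma adjusted p = 0.110); it passed with median centring (adjusted p = 0.0326).

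JAL23 went the other way from JAL22, from which it is separated by 1 annotated locus. It read 2.75, 2.68 and 3.46 in wild type and 6.38, 5.79 and 5.74 in sdg2. The rise was 3.01 ± 0.29 (limma adjusted p = 0.000985), and since the wild type mean of 2.96 is near background, the ratio of amounts was not measured. AT1G73040 also rose, from 4.32, 4.50 and 4.49 in wild type to 6.34, 5.98 and 6.29 in sdg2. The groups were 1.48 apart and the difference was 1.77 ± 0.11 (limma adjusted p = 0.000276), a 3.41-fold higher signal.

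AT1G33790 had the smallest of the 4 falls, -0.43 ± 0.11 (limma adjusted p = 0.0339), from a mean of 5.26 to one of 4.83. That call was lost without wild type replicate 1 or 3, or without sdg2 replicate 2 or 3, at adjusted p of 0.102 to 0.103, and with trended robust eBayes (adjusted p = 0.0509) or unmoderated statistics (adjusted p = 0.0763). AT1G05770, a relative and neighbour of the virus-restricting lectin gene RTM1, read 2.58, 4.35 and 3.61 in wild type and 2.36, 2.63 and 2.43 in sdg2. Its wild type samples scattered with a standard deviation of 0.89, and the difference of -1.04 ± 0.46 did not pass (limma adjusted p = 0.151), although it did without wild type replicate 1 (adjusted p = 0.0159). AT1G19715 had means of 7.64 ± 0.15 (wild type) and 7.90 ± 0.16 (sdg2), and its difference of 0.26 ± 0.11 did not pass. AT1G57570, AT1G60130, AT3G21380, AT3G59610, AT5G28520 and AT5G46000 were near background in both genotypes, with differences between -0.17 and 0.00.

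The neighbours of the jacalin-type genes were looked at in annotated gene order, 5 loci to each side. Around AT5G35940 only 2 other loci have a probe set of their own. AT5G35930 had a difference of 0.66 ± 0.20 that did not pass (limma adjusted p = 0.0568) but passed without wild type replicate 1 (adjusted p = 0.0137) and with trended robust eBayes (adjusted p = 0.0295), and AT5G35960 was near background with a difference of -0.01. AT5G35950, the nearest relative along the chromosome, is one of the loci without a named probe set.

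The same view of chromosome 1, added after its values were seen, runs from AT1G52000 to AT1G52100 with 5 loci on either side. All 5 measured jacalin-type genes in it were lower in sdg2. Of the 8 other genes measured there, 6 did not pass, 1 rose and 1 fell. Over all probe sets 17.6% were called lower and 19.0% higher, and nothing is read from these counts, since the stretch was chosen with its values known. AR791, which lies between AT1G52070 and AT1G52100, had means of 6.06 and 6.04 and a difference of -0.03 ± 0.08. AT1G52010 and AT1G52020, annotated as pseudogenes, were near background in both genotypes, as were IQD27, AT1G51990 and AT1G52090. Of the 6 genes that did not pass, only AR791 stood clear of background. AT1G51980 rose by 0.24 ± 0.05 (limma adjusted p = 0.0191), a call lost when wild type replicate 3 or any sdg2 replicate was left out (adjusted p of 0.0536 to 0.0636) and with a replicate block (adjusted p = 0.0526). AT1G52140, at the far edge, fell by 2.23 ± 0.15 (limma adjusted p = 0.000285), from 7.45 to 5.21. Around JAL22 and JAL23, none of the 3 other measured genes passed, and the gene between them, AT2G39320, was near background with a difference of -0.11 ± 0.08. AT2G39300 was near background in both genotypes too, and AT2G39280 had means of 2.71 (wild type) and 3.22 (sdg2). None of the 3 thus stood well above background.

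**Figure D3:**
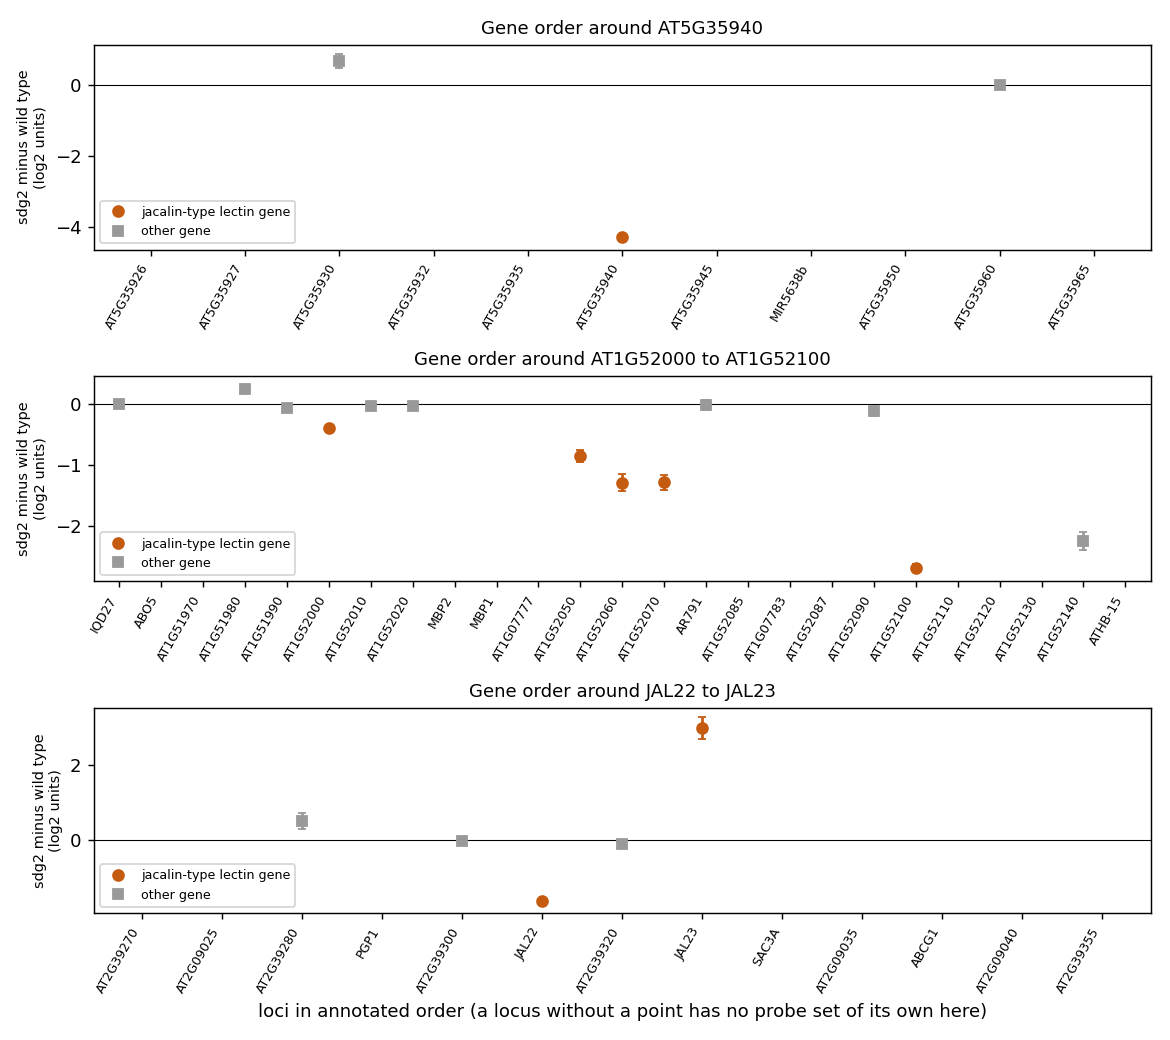
Difference between sdg2 and wild type (log2 units, with the moderated SE) in annotated gene order around AT5G35940, from AT1G52000 to AT1G52100, and around JAL22 and JAL23. Circles are jacalin-type genes and squares other genes. The 5 measured jacalin-type genes of the chromosome 1 stretch lie between -0.41 and -2.68. AR791 between them lies at -0.03, AT1G52140 beyond them lies at -2.23, and JAL22 and JAL23 lie on opposite sides of 0.

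Likeness to AT5G35940 was measured as the Euclidean distance between log2 profiles over the 6 arrays after each gene's mean was subtracted. The 5 nearest genes were AT4G33666, AT2G05540, AT3G29970, AT1G62510 and AT5G48490, at distances of 0.45 to 0.59, none of them a jacalin-type gene. AT2G05540 encodes a glycine-rich protein and AT1G62510 a lipid-transfer-type protein. Their differences ranged from -4.48 in AT1G62510 to -3.99 in AT2G05540, against -4.29 in AT5G35940, and among them AT3G29970 alone had an sdg2 mean near background, at 2.77. Among jacalin-type genes AT1G52100 was nearest, at a distance of 1.98 and rank 63 of 13285 genes, followed by AT2G25980 at 3.07 and rank 222 and JAL22 at 3.26 and rank 263. JAL23 was the farthest, at 8.98 and rank 13245. The arrays share the genotype difference, so these profiles describe its size more than any finer likeness, and 364 genes correlated with AT5G35940 above 0.99 over the 6 arrays.

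ER body genes were examined as the surroundings of the PYK10-binding lectins. Of 18 listed loci 7 were measured, 4 of them the JAL genes above, and 5 fell, 1 rose and 1 did not pass, where 17.6% of all probe sets fell and 19.0% rose. The median difference was -0.33. Nothing is read from these counts, since this list was chosen with earlier results of these data known. NAI1, the transcription factor needed for ER body formation, read 6.91, 7.04 and 7.07 in wild type and 5.57, 5.68 and 5.61 in sdg2. The groups lay 1.23 apart and it fell by 1.39 ± 0.06, 2.61-fold (limma adjusted p = 6.56e-05). NAI2, a structural protein of ER bodies, fell slightly, by 0.18 ± 0.03 (limma adjusted p = 0.00913), which no longer passed once dim probe sets were filtered out (adjusted p = 0.0574). PYK10 itself had means of 13.46 and 13.13 and a fall of 0.33 ± 0.09 (limma adjusted p = 0.0423). That fall no longer passed after quantile normalization (adjusted p = 0.126) or with unmoderated statistics (adjusted p = 0.0884). It was also lost when any array but wild type replicate 1 and sdg2 replicate 2 was left out (adjusted p of 0.109 to 0.122). None of the 14 listed loci of glucosinolate breakdown has a probe set of its own here.

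Of lectins of other families, 5 of the 6 measured genes of 19 listed loci rose, against 19.0% of all probe sets. The median difference of the 6 was 1.95, against -0.01 over all probe sets, and AT1G53080 was near background in both genotypes. Nothing is read from this count or median about lectins of other families, since the list was chosen with earlier results of these data known. AT5G03350, a legume-type lectin gene, read 4.87, 5.21 and 4.49 in wild type and 8.50, 8.35 and 8.61 in sdg2. It rose by 3.63 ± 0.20, 12.4-fold (limma adjusted p = 0.00016). AT3G16530, another legume-type lectin gene, rose by 2.93 ± 0.05 (limma adjusted p = 1e-05), from 8.83 to 11.76. AT5G18470, of the curculin-like mannose-binding type, rose by 2.55 ± 0.16, and AT1G53070, also legume-type, by 1.36 ± 0.17. EULS3, a Euonymus-type lectin gene, rose by 0.53 ± 0.16 (limma adjusted p = 0.0490). Its rise no longer passed after median centring (adjusted p = 0.0575), after quantile normalization (adjusted p = 0.0645) or with unmoderated statistics (adjusted p = 0.102). It was also lost when any single array was left out (adjusted p of 0.0567 to 0.116).

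**Figure D4:**
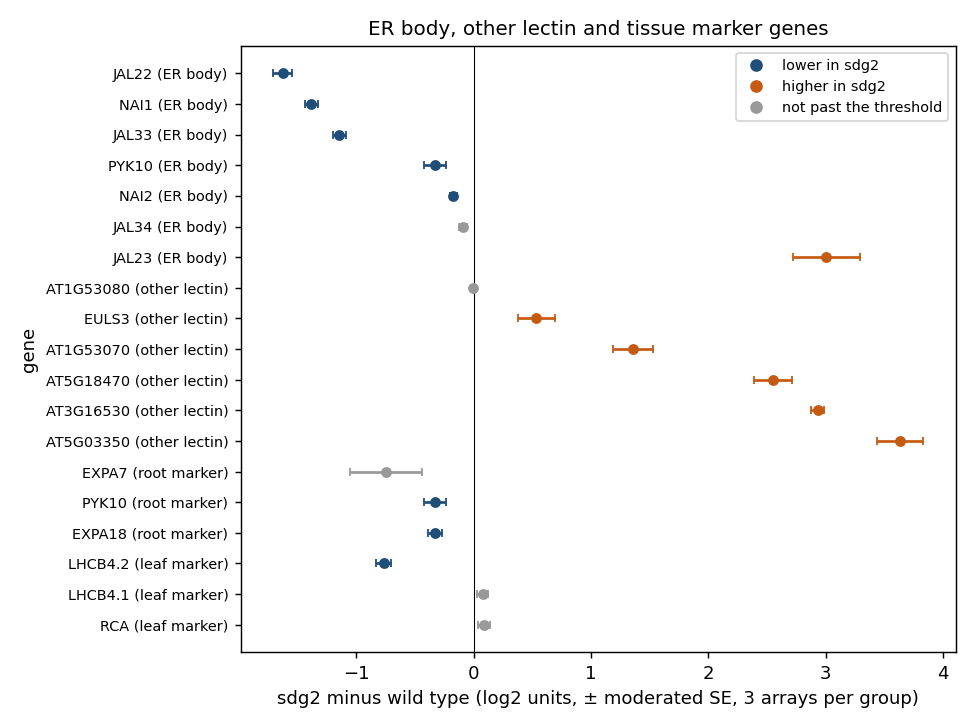
Difference between sdg2 and wild type (log2 units, with the moderated SE, 3 arrays per genotype) for ER body genes, lectins of other families and markers of root and leaf tissue. Blue genes were lower and orange genes higher at an adjusted p of 0.05; of the lectins of other families 5 of 6 lie above 0, between 0.53 and 3.63.

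Whole seedlings mix root and shoot, and a smaller share of a tissue cannot be told apart from less RNA per cell in it. Of 17 listed root marker loci 3 were measured, all genes active in roots. EXPA18 fell by 0.33 ± 0.06 (limma adjusted p = 0.00956), PYK10 is given above, and EXPA7 had a difference of -0.75 ± 0.31 that did not pass (limma adjusted p = 0.128). EXPA7 passed without wild type replicate 3 (adjusted p = 0.0363), once dim probe sets were filtered out (adjusted p = 0.0286) and with a replicate block (adjusted p = 0.0273). The mean log2 signal of the 3 root markers was between 8.69 and 9.01 on the wild type arrays and between 8.31 and 8.50 on the sdg2 arrays, and none of them was at background. Of 12 listed leaf photosynthesis loci 3 were measured. LHCB4.2 fell by 0.77 ± 0.06, the differences of RCA (0.09) and LHCB4.1 (0.08) did not pass, and the mean of the 3 lay between 14.11 and 14.22 in wild type and between 13.93 and 14.00 in sdg2. The part of tissue make-up in the differences of the jacalin-type genes was not tested.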

How the data were processed

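Per the labels' protocols, biotin-labelled RNA was hybridised to 1-colour Affymetrix arrays. The deposited values are on the log2 scale, and GCRMA (background adjustment, quantile normalization and summary into probe sets) was the tool, per the submitters' processing notes. The GCRMA version is not given in the sources used here. The table holds 22810 probe sets, and 64 controls were left out. Genes were named from the supplied platform annotation and the TAIR10.1 gene table, with 13436 of 13513 probe sets naming 1 gene matched to a locus, and each gene was shown by its brightest probe set. Every jacalin-type gene has 1.

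sdg2 was compared with wild type by lmFit and eBayes of limma 3.58.1 (R 4.3.3) on group means, and p-values were adjusted over all 22746 probe sets by Benjamini-Hochberg. The precision is limited by 3 arrays per group. The members and lists were chosen with earlier results of these data known. The named genes are all members, every measured gene of the wider jacalin family, the 5 profiles nearest to AT5G35940, its measured neighbours within 5 loci, and of each list the 2 largest changes in each direction past the threshold or the largest that did not pass; others are named because few were measured. Alternatives were leaving out each array, median centring, quantile normalization, a replicate block, averaging each gene's probe sets, a filter keeping probe sets that reach 5 on 3 or more arrays, unmoderated statistics, trended robust eBayes and treat at 0.5. Figures were drawn with matplotlib 3.10.9.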

Additional observations from a re-analysis of the deposited data

How the results depend on the processing

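AT5G35940, chosen for its fall, is left out of the calls counted here. Among the 6 relatives, 5 were called lower in sdg2 in the main fit, where 17.6% of all probe sets were. Those calls were the same under all alternatives run except treat with a minimum change of 0.5. There AT1G52000 (-0.41) and AT1G52050 (-0.86) were no longer called. The difference of AT1G52000 is smaller than that minimum. AT1G52050 differed by more than the minimum but narrowly missed the threshold (treat adjusted p = 0.0558). The filter on dim probe sets removed AT5G49870 and kept AT5G35940 through its wild type arrays alone, so it says nothing about the stability of either. Averaging each gene's probe sets could not change the difference of any jacalin-type gene, since each has 1, so it says nothing about their stability. With 1 array left out, the same 5 relatives were called and the difference of AT5G35940 was between -4.34 and -4.21. The median of the 7 members, AT5G35940 included, was between -1.31 and -1.14. The lower size, -1.14, came without wild type replicate 3. Over the same fits the differences ranged from -0.45 to -0.36 for AT1G52000, from -0.94 to -0.80 for AT1G52050, from -1.36 to -1.14 for AT1G52060, from -1.40 to -1.22 for AT1G52070, from -1.88 to -1.75 for AT2G25980 and from -0.08 to -0.03 for AT5G49870. The main fit did not pair the samples by the replicate numbers that the groups share. Deviations of same-numbered samples correlated at -0.01, 0.07 and 0.06, and those of differently numbered samples at -0.08 to 0.01. Whether same-numbered samples belong together is not settled by these values. With a replicate block, the same 5 relatives were called and the difference of AT5G35940 was -4.29 ± 0.10. Ranked by Pearson correlation in place of distance, 0 of the 5 genes nearest to AT5G35940 were the same. The alternatives for genes that are no members were added after the data were seen. The other 15 jacalin-type genes gave 5 to 7 calls under them. The filter on dim probe sets tested only 8 of the 15, some kept through 1 genotype alone, so its count of 6 says nothing about stability. The single results of genes that are no members each hold 1 gene under 1 alternative. Of these, 33 lost a call, 7 gained one and 600 stayed the same, with no called direction reversed. The 600 include genes near background that had no call to lose. Signals near background limit the folds of AT5G35940, JAL23 and AT1G05770.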
